A study of Homo sapiens with 10 samples.

Results

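The difference of the response to imidazole ketone erastin (IKE) between CFPAC-1 and PANC-1, established human lines of pancreatic ductal adenocarcinoma, was measured gene by gene in bulk RNA. For each gene, the log2 change with IKE in CFPAC-1 was subtracted from the log2 change with IKE in PANC-1. A gene was compared where its mean FPKM (sequenced fragments per unit of transcript length, relative to each library's mapped total) with DMSO was at least 5 in each line, which 8050 of the 20289 genes in the table met. CFPAC-1 was given 0.1% DMSO, the solvent, in 2 libraries or 10 µM IKE in 2 libraries. PANC-1 was given 0.1% DMSO in 2 libraries or 1 µM IKE in 4 libraries. All 10 libraries came from cultures treated for 24 h, and in each group dead cells and debris had been taken away, so that surviving cells were measured. Since the dose differed with the line, line and dose cannot be told apart in any value below. In bulk RNA, fewer cells of a kind and less RNA per cell cannot be told apart either. Each group is a single established line, so a difference here is between 2 cell lines and not between classes of tumour. At the edge of the rule, 3 genes sat exactly at the limit of 5 FPKM, IER3IP1, MFSD9 and TVP23C-CDRT4, and 3 lay just outside at 4.995 FPKM, IGFBP7, HGSNAT and MC1R.

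IKE closes system xc-, the antiporter built from SLC7A11 and SLC3A2 that trades internal glutamate for cystine from outside. Cells short of cysteine lose glutathione, and the lipid peroxides that glutathione peroxidase would clear can then build up to ferroptosis. Shortage of an amino acid also leads to phosphorylation of the initiation factor eIF2α, under which the transcription factor ATF4 is translated and turns on amino acid transporters, biosynthetic enzymes and tRNA synthetases. Oxidative stress releases NRF2 from KEAP1, and NRF2 turns on genes of glutathione synthesis, NADPH supply and iron storage.

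Of the 8050 genes, 22 had a difference of response past an adjusted p of 0.05 in limma with Benjamini-Hochberg adjustment over all 13077 genes fitted. The log2 change was higher in CFPAC-1 for 16 of them (0.199% of the genes compared) and higher in PANC-1 for 6 (0.0745%). Over all 13077 fitted genes, 30 were called with a higher change in CFPAC-1 (0.229%) and 14 with a higher change in PANC-1 (0.107%). Among the 16 were ATF4, the amino acid transporter SLC7A5, the enzymes ASNS, PHGDH and MTHFD2, the lipid genes SCD and INSIG1 and the hypoxia-inducible DDIT4, STC2 and P4HA1. Among the 6 were the YAP target CCN1 and the related membrane proteins NF2 and EZR. The median difference over the 8050 genes was 0.01 on the log2 scale, and the 5th to 95th percentile ran from -0.33 to 0.32. Called differences were at least 0.52 in size, while 196 genes differed by 0.5 or more. The median standard error of a difference was 0.13, and with 2 libraries in 3 of the 4 groups small differences were not detectable. At an unadjusted p of 0.05, 439 genes (5.45%) had the higher change in CFPAC-1 and 527 (6.55%) in PANC-1.

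**Figure D1:**
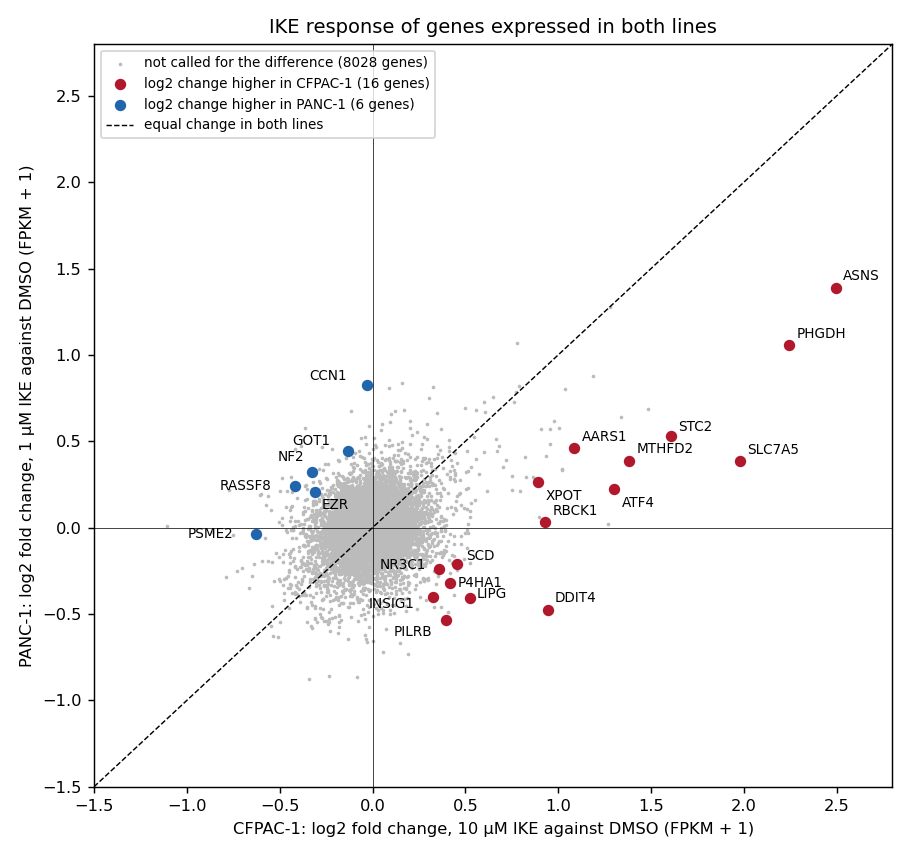
Log2 fold change with IKE in CFPAC-1 (x axis) and PANC-1 (y axis) for the 8050 genes expressed in both lines, on log2(FPKM + 1). Points on the dashed line changed equally; the 16 red genes lie below it, with ASNS and PHGDH at the far right, and the 6 blue genes lie above it, with CCN1 highest.

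Within the lines, IKE raised 66 of the 8050 genes (0.82%) and lowered 34 (0.422%) in CFPAC-1, against 121 raised (1.5%) and 110 lowered (1.37%) in PANC-1. The 2 comparisons within lines share no library with each other, but both take their error from the same fit over all 10 libraries. Their calls are therefore not independent. The 2 comparisons also differ in power, since PANC-1 had more IKE libraries than CFPAC-1. The median standard error of a log2 change was 0.102 in CFPAC-1 and 0.088 in PANC-1. Counts and shares of calls within each line, here and for the gene lists below, thus do not show which line responded more broadly. Called in both lines were 53 genes, which is 53% of the CFPAC-1 calls and 22.9% of the PANC-1 calls. Of these, 38 rose in both, 12 fell in both, and 3 rose in CFPAC-1 and fell in PANC-1. No gene fell in CFPAC-1 and rose in PANC-1 past both thresholds. A difference between lines was called for 7 of the 50 genes changed the same way in both, for all 3 genes changed in opposite ways, for 6 of 47 called in CFPAC-1 only and for 5 of 178 called in PANC-1 only. The remaining gene, NR3C1, passed in neither line alone. Over all genes compared, a difference was called for 0.273%. The difference is made from the same 2 changes, so genes called in opposite ways were bound to differ widely. These counts are thus a description.

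The number of called genes moved with the libraries used. Leaving out PANC-1 IKE replicate 2 raised it from 22 to 38. Leaving out a single CFPAC-1 or PANC-1 DMSO library, or a CFPAC-1 IKE library, lowered it to between 8 and 13, namely 11 and 8 without CFPAC-1 DMSO replicates 1 and 2, 10 and 8 without CFPAC-1 IKE replicates 1 and 2, and 9 and 13 without PANC-1 DMSO replicates 1 and 2. In those 6 fits the lone library left in a group is assumed to vary like the other groups. SLC7A5, DDIT4, PHGDH, ATF4, STC2, MTHFD2 and RBCK1 were called in all 10 fits that leave out 1 library, and none of the 22 genes changed sign in any of them. The labels speak of bioreplicates without naming separate cultures, so the p-values cover the spread between these samples alone, which may be technical.

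Promoters of called genes were searched for the core of the element through which ATF4 and its C/EBP partners act, TGATGNAA, on both strands of the window from 250 bases before to 50 after the start of each gene. Of the called genes with an entry, 3 held it, and they are shown because they include the called gene with the largest rise in either line, ASNS, and fall on both sides of the comparison. ASNS (chr7:97872359-97872658, minus strand) and AARS1 (chr16:70289457-70289756, minus strand) had the higher change in CFPAC-1, and GOT1 (chr10:99430575-99430874, minus strand) had the higher change in PANC-1. Sequences are from RefSeq on GRCh38.p14, written 5′ to 3′ along the gene, with the match in capitals.

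ASNS: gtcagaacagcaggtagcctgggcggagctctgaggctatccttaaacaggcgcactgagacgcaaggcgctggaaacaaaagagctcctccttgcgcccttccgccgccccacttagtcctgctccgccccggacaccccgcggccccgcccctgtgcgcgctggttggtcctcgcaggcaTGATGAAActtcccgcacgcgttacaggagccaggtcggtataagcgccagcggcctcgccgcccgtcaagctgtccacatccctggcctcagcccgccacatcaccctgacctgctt

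AARS1: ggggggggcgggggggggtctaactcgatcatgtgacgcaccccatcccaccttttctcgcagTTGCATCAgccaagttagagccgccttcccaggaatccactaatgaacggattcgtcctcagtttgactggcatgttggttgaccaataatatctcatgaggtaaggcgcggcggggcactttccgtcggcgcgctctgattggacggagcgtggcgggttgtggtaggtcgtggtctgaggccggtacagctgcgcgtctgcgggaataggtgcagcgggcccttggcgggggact

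GOT1: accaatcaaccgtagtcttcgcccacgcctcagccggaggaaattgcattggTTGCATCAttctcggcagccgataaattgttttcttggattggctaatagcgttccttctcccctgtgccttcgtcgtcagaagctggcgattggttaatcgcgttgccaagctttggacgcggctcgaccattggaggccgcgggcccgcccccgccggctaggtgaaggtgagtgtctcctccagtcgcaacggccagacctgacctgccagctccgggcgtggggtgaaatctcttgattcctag

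The match began 68 bases before the start in ASNS, where it overlapped a match to the heat shock core GAANNTTC, 187 bases before it in AARS1 and 198 before it in GOT1. In AARS1 and GOT1 the core was read on the opposite strand. TGATGNAA was found in 2 of 15 promoters of genes with the higher change in CFPAC-1 (13.3%), in 1 of 4 with the higher change in PANC-1 (25%), in 1.58% of the 6715 promoters of compared genes and in 3.62% of all 35116 promoters of this length. The antioxidant response core TGACNNNGC was found in 4 of the 15 (SLC7A5, MTHFD2, STC2 and XPOT, 26.7%) and 1 of the 4 (PSME2, 25%), against 15.8% of compared genes and 13.3% of all promoters. GAANNTTC was found in 1 of the 15 (ASNS, 6.67%) and 0 of the 4, against 4.35% and 6.77%. A match is a run of letters in this window and shows no binding.

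SLC7A5 had the largest difference of the called genes. SLC7A5, the light chain of the large neutral amino acid exchanger LAT1, stood at 10.2 and 9.41 FPKM in CFPAC-1 with DMSO and at 40.4 and 42.9 with IKE. In PANC-1 it stood at 75.6 and 71.5 FPKM with DMSO and at 102.8, 104.2, 86.3 and 92.8 with IKE. The IKE libraries lay above the DMSO libraries in both lines, and CFPAC-1 with IKE remained below PANC-1 with DMSO. Separation of treatments in at least 1 line was part of the rule for naming the largest differences. Here and below it is thus a description and no added support. The log2 change was 1.98 ± 0.09 (SE) in CFPAC-1 and 0.38 ± 0.08 in PANC-1, a difference of -1.59 (95% interval -1.87 to -1.32, limma adjusted p = 0.000661).

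ATF4, a transcription factor of the amino acid response, started from nearly the same level in both lines. It was measured at 91.4 and 94.0 FPKM in CFPAC-1 with DMSO and at 232.3 and 227.8 with IKE. In PANC-1 it was measured at 99.7 and 98.8 FPKM with DMSO and at 118.2, 117.6, 105.5 and 123.1 with IKE. All IKE libraries were above the DMSO libraries of their line, but those of PANC-1 were below both CFPAC-1 IKE libraries. Its log2 change was 1.302 ± 0.07 in CFPAC-1 (limma adjusted p = 2.98e-06) and 0.22 ± 0.06 in PANC-1, where it did not pass (limma adjusted p = 0.0951). The difference was -1.08 (-1.29 to -0.87, limma adjusted p = 0.00146).

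ASNS, asparagine synthetase, rose in both lines, and more on the log2 scale in CFPAC-1. Its values were 11.4 and 11.1 FPKM in CFPAC-1 with DMSO and 64.2 and 72.6 with IKE, then 47.3 and 52.8 in PANC-1 with DMSO and 145.5, 131.1, 115.8 and 139.8 with IKE. PANC-1 held the higher level in each condition. The log2 changes of 2.50 ± 0.11 and 1.39 ± 0.09 differed by -1.11 (-1.41 to -0.80, limma adjusted p = 0.00820). In FPKM, the order was the other way round, since the mean gain was 25.9 FPKM larger in PANC-1. Without CFPAC-1 DMSO replicate 2 or CFPAC-1 IKE replicate 2, the limma adjusted p for ASNS rose to between 0.0620 and 0.0673.

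PHGDH, which takes the first step from glycolysis into serine, had 7.62 and 6.61 FPKM in CFPAC-1 with DMSO and 35.7 and 39.0 with IKE. PANC-1 had 31.4 and 29.6 FPKM with DMSO and 65.2, 71.1, 58.7 and 63.8 with IKE. The line with the lower starting level had the larger log2 change, 2.24 ± 0.10 against 1.06 ± 0.08, a difference of -1.18 (-1.47 to -0.90, limma adjusted p = 0.00318). As for ASNS, the gain in FPKM was larger in PANC-1, by 3.94.

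MTHFD2, the mitochondrial one-carbon enzyme, went from 27.6 and 30 FPKM to 79.1 and 74.2 in CFPAC-1. In PANC-1 it went from 115.7 and 119.6 FPKM to 161.6, 155.5, 139.4 and 161.7. The groups did not overlap within either line, and the log2 changes of 1.38 ± 0.08 and 0.39 ± 0.07 differed by -0.99 (-1.23 to -0.76, limma adjusted p = 0.00318). MTHFD2 overlaps SLC4A5 in the annotation, so its level is uncertain where strand was not used in counting.

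AARS1 and XPOT, which serve translation, differed by less. AARS1, alanyl-tRNA synthetase, had 30.6 and 29.8 FPKM in CFPAC-1 with DMSO, 64.5 and 66.0 with IKE, 49.1 and 50.7 in PANC-1 with DMSO and 67.8, 74.4, 66.4 and 67.5 with IKE. With IKE the lines thus reached about the same level from different starts, and the difference was -0.63 (-0.83 to -0.43, limma adjusted p = 0.0176). XPOT, which exports tRNA from the nucleus, had 13.5 and 13.1 FPKM in CFPAC-1 with DMSO, 25.01 and 26.09 with IKE, 49.6 and 45.8 in PANC-1 with DMSO and 58.6, 56.1, 56.3 and 59.1 with IKE. Its difference was also -0.63 (-0.83 to -0.43, limma adjusted p = 0.0176), with PANC-1 higher throughout. Both calls depended on single libraries: XPOT lost its call in 5 of the 10 fits without 1 library (any CFPAC-1 library or PANC-1 DMSO replicate 1, limma adjusted p up to 0.102) and AARS1 in 6 (those and PANC-1 DMSO replicate 2, up to 0.103).

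Across the list of ATF4 amino acid response genes, 23 of 46 were expressed in both lines. Of these, 18 rose in CFPAC-1, and 15 rose and 1 fell in PANC-1. Over all genes compared, 0.82% rose in CFPAC-1, and 1.5% rose and 1.37% fell in PANC-1. The difference was called for 8 of the 23, all with the higher change in CFPAC-1 (SLC7A5, DDIT4, PHGDH, ASNS, ATF4, STC2, MTHFD2 and XPOT), against 0.199% of all genes compared. The median difference of the list was -0.60, beside 0.01 over all genes, and it ranged from -0.64 to -0.53 without single libraries. The difference lay below 0 for 20 of the 23. Among members without a call, PSPH, the last enzyme of serine synthesis, differed by -0.83 (limma adjusted p = 0.0625), SHMT2 of mitochondrial one-carbon metabolism by -0.68 (0.0801) and the glutamine transporter SLC38A2 by -0.52 (0.0561). PCK2 rose equally in both lines, by 1.28 in each, with a difference of -0.003. PPP1R15A, the phosphatase subunit that reverses eIF2α phosphorylation, went the other way: it had 13.5 and 13.8 FPKM in CFPAC-1 with DMSO and 13.98 and 15.24 with IKE, but 6.48 and 7.73 in PANC-1 with DMSO and 13.99, 12.88, 12.02 and 13.84 with IKE. It rose in PANC-1 (limma adjusted p = 0.00146), and its difference of 0.72 was not called (limma adjusted p = 0.0629).

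Of 20 tRNA synthetases, 10 rose in CFPAC-1 and 11 in PANC-1, beside 0.82% and 1.5% of all genes compared. AARS1 alone was called for the difference. The median difference was -0.03, and under other settings it ran from -0.06 to 0.00073. GARS1, glycyl-tRNA synthetase, rose by 1.19 ± 0.07 in CFPAC-1 and by 0.88 ± 0.06 in PANC-1, a difference of -0.31 (-0.51 to -0.12, limma adjusted p = 0.198), and its gain in FPKM was larger in PANC-1. TARS1, threonyl-tRNA synthetase, rose by 0.75 and 0.30, a difference of -0.45 (limma adjusted p = 0.0801). Among 13 serine and one-carbon enzymes, 5 rose in CFPAC-1 and 2 in PANC-1, beside the same shares of all genes. PHGDH and MTHFD2 were called for the difference, with the higher change in CFPAC-1, beside 0.199% of all genes compared. The median difference was -0.16. PHGDH, MTHFD2, PSPH and SHMT2 are in the ATF4 list as well.

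**Figure D2:**
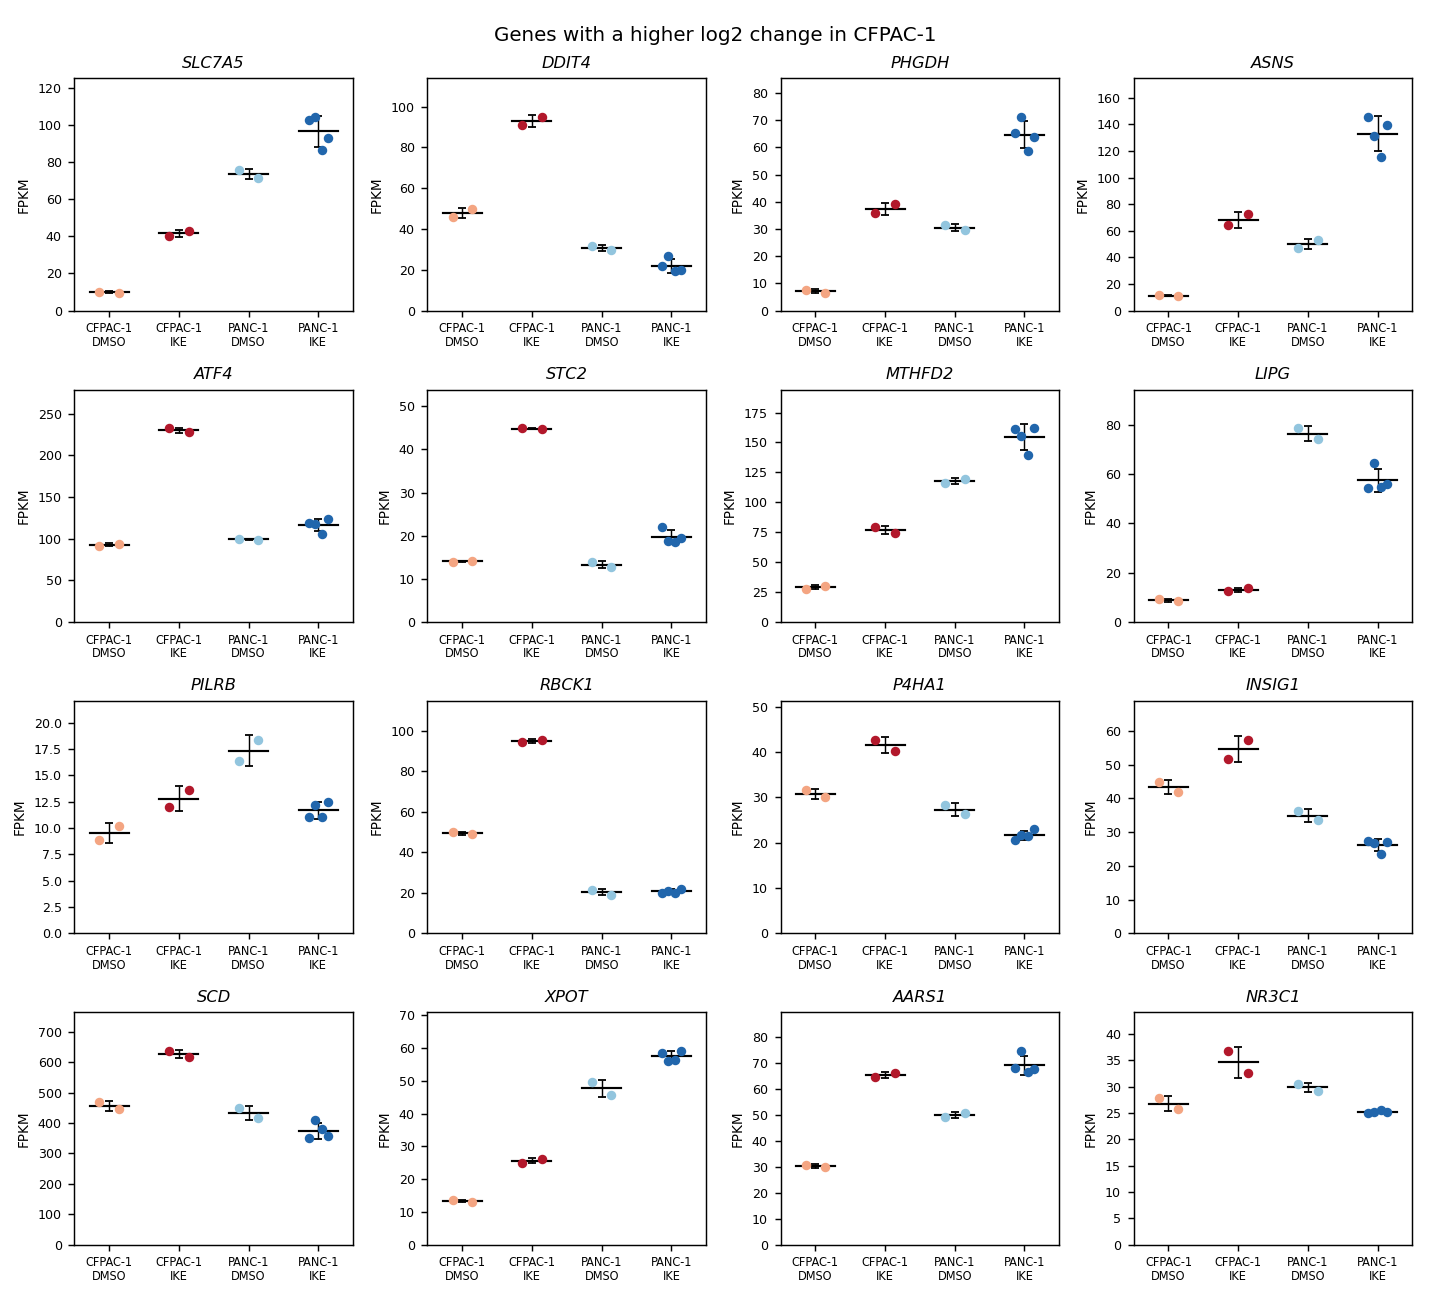
FPKM in each library (points) for the 16 genes whose log2 change was higher in CFPAC-1, by line and treatment, with the group mean (bar) and SD (whisker). DDIT4, LIPG and P4HA1 rise in CFPAC-1 and fall in PANC-1, while SLC7A5, PHGDH and ASNS rise in both from a lower start in CFPAC-1.

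Past both thresholds, 3 genes rose in CFPAC-1 and fell in PANC-1. DDIT4 (REDD1), a stress-induced inhibitor of mTORC1, stood at 46.0 and 49.6 FPKM in CFPAC-1 with DMSO and at 90.7 and 94.8 with IKE. In PANC-1 it stood at 31.7 and 29.5 FPKM with DMSO and at 21.9, 26.5, 19.15 and 19.98 with IKE. There was no overlap between treatments in either line, and the log2 changes of 0.94 ± 0.12 and -0.47 ± 0.11 differed by -1.42 (-1.78 to -1.06, limma adjusted p = 0.00394). The fall in PANC-1 was near the threshold (limma adjusted p = 0.0455).

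P4HA1, a subunit of the prolyl hydroxylase that modifies collagen, had 31.50 and 30.02 FPKM in CFPAC-1 with DMSO, 42.7 and 40.2 with IKE, 28.3 and 26.2 in PANC-1 with DMSO and 20.5, 21.6, 21.4 and 23.0 with IKE. Its difference was -0.74 (-0.96 to -0.51, limma adjusted p = 0.0159). LIPG, endothelial lipase, had 9.17 and 8.36 FPKM in CFPAC-1 with DMSO, 12.5 and 13.6 with IKE, 78.4 and 74.2 in PANC-1 with DMSO and 54.4, 64.4, 54.5 and 56.0 with IKE. Its difference was -0.93 (-1.20 to -0.66, limma adjusted p = 0.0116), and PANC-1 IKE replicate 2 stood above its 3 fellow libraries. P4HA1 lost its call without any 1 of the CFPAC-1 libraries or PANC-1 DMSO replicate 1 (limma adjusted p from 0.0537 to 0.0917). LIPG lost it without CFPAC-1 DMSO replicate 2, CFPAC-1 IKE replicate 2 or PANC-1 DMSO replicate 1 (0.0680 to 0.0823).

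STC2, stanniocalcin 2, a secreted glycoprotein induced by hypoxia and by ATF4, rose in both lines from like levels. It had 13.98 and 14.09 FPKM in CFPAC-1 with DMSO, 44.9 and 44.8 with IKE, 13.8 and 12.8 in PANC-1 with DMSO and 21.9, 18.8, 18.5 and 19.4 with IKE. The log2 changes of 1.61 ± 0.09 and 0.53 ± 0.08 differed by -1.08 (-1.34 to -0.82, limma adjusted p = 0.00318). Of 20 hypoxia targets expressed in both lines, 4 rose in CFPAC-1 (DDIT4, P4HA1, STC2 and VEGFA), and 1 rose (STC2) and 3 fell (DDIT4, LDHA and P4HA1) in PANC-1. Over all genes compared, 0.82% rose in CFPAC-1, and 1.5% rose and 1.37% fell in PANC-1. The difference was called for 3 of the 20, STC2, DDIT4 and P4HA1, against 0.199% of all genes compared, and the median was -0.38, or -0.42 to -0.30 without single libraries. STC2 and DDIT4 are in the ATF4 list as well. VEGFA, the angiogenic growth factor, had 92.2 and 121.0 FPKM in CFPAC-1 with DMSO, 216.4 and 214.7 with IKE, 26.9 and 33.9 in PANC-1 with DMSO and 42.3, 42.7, 31.3 and 38.4 with IKE, where the treatments overlapped in PANC-1. Its difference of -0.69 (-1.15 to -0.22) was not called (limma adjusted p = 0.226). The 25 genes of glycolysis and the pentose phosphate path had a median difference of -0.14 with none called, which was -0.06 without PANC-1 DMSO replicate 1 and -0.22 without PANC-1 DMSO replicate 2.

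The lipid genes SCD and INSIG1 also had the higher change in CFPAC-1. SCD, the desaturase that makes monounsaturated fatty acids, had 469.2 and 445.8 FPKM in CFPAC-1 with DMSO, 637.0 and 618.6 with IKE, 449.1 and 416.4 in PANC-1 with DMSO and 350.8, 409.7, 380.1 and 356.4 with IKE. It rose in CFPAC-1 by 0.46 ± 0.08 (limma adjusted p = 0.0185), and its change of -0.21 ± 0.07 in PANC-1 did not pass (0.152), although each PANC-1 IKE library was below each DMSO library. The difference was -0.67 (-0.90 to -0.43, limma adjusted p = 0.0251).

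INSIG1, the sterol sensor that holds the SREBP processing complex in the endoplasmic reticulum, had 44.8 and 41.8 FPKM in CFPAC-1 with DMSO, 51.8 and 57.4 with IKE, 36.2 and 33.5 in PANC-1 with DMSO and 27.4, 26.7, 23.6 and 27.1 with IKE. It fell in PANC-1 (limma adjusted p = 0.0233), did not pass in CFPAC-1 (0.118), and differed by -0.73 (-0.99 to -0.47, limma adjusted p = 0.0256). SCD was called in 3 and INSIG1 in 4 of the 10 fits without 1 library. SCD lost its call without any CFPAC-1 library, either PANC-1 DMSO library or PANC-1 IKE replicate 4, and INSIG1 without any CFPAC-1 or PANC-1 DMSO library, each with a limma adjusted p of up to 0.165. SCD was also lost with no filter on low values (limma adjusted p = 0.0546). Both genes were lost with the replicate number as a block, with PANC-1 IKE replicates 1 and 2 alone and with no intensity trend. In these fits the limma adjusted p was up to 0.117 for SCD and 0.0931 for INSIG1.

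Of 24 genes of cholesterol synthesis and uptake, none passed in CFPAC-1. In PANC-1, 4 of the 24 fell (INSIG1, MSMO1, FDFT1 and TM7SF2), beside 1.37% of all genes compared. The difference lay below 0 for 23 of the 24 with a median of -0.32, and it was called for INSIG1. At an unadjusted p of 0.05, 15 of the 24 had the higher change in CFPAC-1 and 0 in PANC-1, beside 5.45% and 6.55% of all genes compared. MSMO1, a sterol demethylase, was the nearest to a call, with 78.6 and 68.5 FPKM in CFPAC-1 with DMSO, 93.2 and 92.5 with IKE, 29.3 and 28.2 in PANC-1 with DMSO and 24.1, 19.60, 19.95 and 22.59 with IKE (difference -0.74, limma adjusted p = 0.0510). Of 13 genes of fatty acid synthesis and desaturation, 2 rose in CFPAC-1 (ACSL1 and SCD) and 1 fell in PANC-1 (SREBF1). The shares over all genes compared were 0.82% and 1.37%. The median difference of the 13 genes was -0.30. SREBF1, the transcription factor of these enzymes, differed by -0.61 (limma adjusted p = 0.116) and FASN, fatty acid synthase, by -0.71 (0.148).

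A further 3 genes had the higher change in CFPAC-1. RBCK1 (HOIL-1), a subunit of the linear ubiquitin ligase complex, had 50.0 and 48.8 FPKM in CFPAC-1 with DMSO, 94.4 and 95.6 with IKE, 21.3 and 19.1 in PANC-1 with DMSO and 19.80, 21.05, 19.94 and 21.85 with IKE. It rose in CFPAC-1 by 0.93 ± 0.08, the treatments overlapped in PANC-1 (0.03 ± 0.07), and the difference was -0.90 (-1.12 to -0.68, limma adjusted p = 0.00342). PILRB, an activating immunoglobulin-like receptor, had 8.83 and 10.2 FPKM in CFPAC-1 with DMSO, 11.9 and 13.6 with IKE, 16.3 and 18.4 in PANC-1 with DMSO and 11.01, 12.16, 10.99 and 12.45 with IKE. It fell in PANC-1 and differed by -0.93 (-1.24 to -0.61, limma adjusted p = 0.0211). Its annotation overlaps PILRA, so its level is uncertain.

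NR3C1, the glucocorticoid receptor, passed in neither line and falls outside the naming rule; it is named here after its values were seen. It had 27.8 and 25.7 FPKM in CFPAC-1 with DMSO, 36.7 and 32.6 with IKE, 30.5 and 29.2 in PANC-1 with DMSO and 24.9, 25.2, 25.5 and 25.1 with IKE. The treatments did not overlap in either line, in opposite directions, and the difference was -0.59 (-0.82 to -0.37, limma adjusted p = 0.0363). NR3C1 kept its call only without PANC-1 IKE replicate 2 (limma adjusted p up to 0.185 without any other single library). PILRB lost its call without any CFPAC-1 or PANC-1 DMSO library (up to 0.118).

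On the other side of the comparison, CCN1 (CYR61), a matrix-associated growth factor and target of YAP, had the largest difference of the called genes. It had 44.7 and 41.5 FPKM in CFPAC-1 with DMSO and 43.1 and 41.1 with IKE, where the groups overlapped. In PANC-1 it had 95.1 and 88.5 FPKM with DMSO and 177.3, 151.7, 147.2 and 179.2 with IKE, all above the DMSO libraries. The log2 changes of -0.03 ± 0.10 and 0.82 ± 0.09 differed by 0.86 (0.57 to 1.15, limma adjusted p = 0.0211).

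NF2 (merlin), a tumour suppressor that restrains YAP, and EZR (ezrin), its relative that ties membrane to actin, were lower with IKE in each CFPAC-1 library and higher in each PANC-1 library. NF2 had 75.3 and 70.6 FPKM in CFPAC-1 with DMSO, 60.2 and 55.8 with IKE, 58.5 and 63.9 in PANC-1 with DMSO and 76.2, 74.5, 76.0 and 79.9 with IKE. It rose in PANC-1 (limma adjusted p = 0.0227), its change of -0.33 ± 0.07 in CFPAC-1 did not pass (0.0546), and the difference was 0.65 (0.44 to 0.86, limma adjusted p = 0.0176). EZR had 325.3 and 321.4 FPKM in CFPAC-1 with DMSO, 262.9 and 257.7 with IKE, 105.6 and 105.6 in PANC-1 with DMSO and 117.3, 124.8, 121.6 and 123.6 with IKE. EZR fell in CFPAC-1 (limma adjusted p = 0.0209), did not pass in PANC-1 (0.0579), and differed by 0.52 (0.35 to 0.68, limma adjusted p = 0.0176). The treatments did not overlap in either line for either gene.

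RASSF8, a RAS association domain protein of cell junctions, had 35.1 and 36.1 FPKM in CFPAC-1 with DMSO, 25.8 and 27.0 with IKE, 43.9 and 45.0 in PANC-1 with DMSO and 53.8, 54.5, 54.4 and 48.2 with IKE. It fell in CFPAC-1 (limma adjusted p = 0.0186), its change in PANC-1 did not pass (0.0816), and the difference was 0.66 (0.44 to 0.88, limma adjusted p = 0.0199). PANC-1 IKE replicate 4 stood below its fellow libraries but above both DMSO libraries.

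GOT1, the cytosolic aspartate aminotransferase, had 29.53 and 30.05 FPKM in CFPAC-1 with DMSO, 27.5 and 26.7 with IKE, 28.3 and 30.5 in PANC-1 with DMSO and 42.2, 42.6, 38.7 and 38.1 with IKE. It rose in PANC-1 by 0.45 ± 0.07 from the level that CFPAC-1 shared, and the difference was 0.58 (0.35 to 0.80, limma adjusted p = 0.0434). PSME2, a subunit of the 11S activator of the proteasome, had 215.5 and 226.6 FPKM in CFPAC-1 with DMSO, 144.5 and 141.3 with IKE, 96.5 and 93.8 in PANC-1 with DMSO and 90.9, 100.05, 92.4 and 87.8 with IKE. It fell in CFPAC-1 by 0.63 on the log2 scale, its PANC-1 groups overlapped, and the difference was 0.59 (0.38 to 0.79, limma adjusted p = 0.0215). PSME2 overlaps RNF31 in the annotation, so its level is uncertain.

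None of these 6 calls held without every single library. CCN1, EZR, RASSF8 and PSME2 each lost the call without any CFPAC-1 or PANC-1 DMSO library, with limma adjusted p-values of up to 0.118, 0.106, 0.101 and 0.139. NF2 lost it without CFPAC-1 DMSO replicate 1 or 2, CFPAC-1 IKE replicate 2 or PANC-1 DMSO replicate 1 (up to 0.104). GOT1 kept it only without PANC-1 IKE replicate 2 (up to 0.206 without any other). CCN1 was also lost with no filter on low values (limma adjusted p = 0.0513), and GOT1 with a pseudocount of 0.1 (0.0569). GOT1, EZR and PSME2 were lost with the replicate number as a block and with no intensity trend, and NF2 with the block. All 4 of these were lost with PANC-1 IKE replicates 1 and 2 alone, and GOT1 also with replicates 3 and 4 alone.

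**Figure D3:**
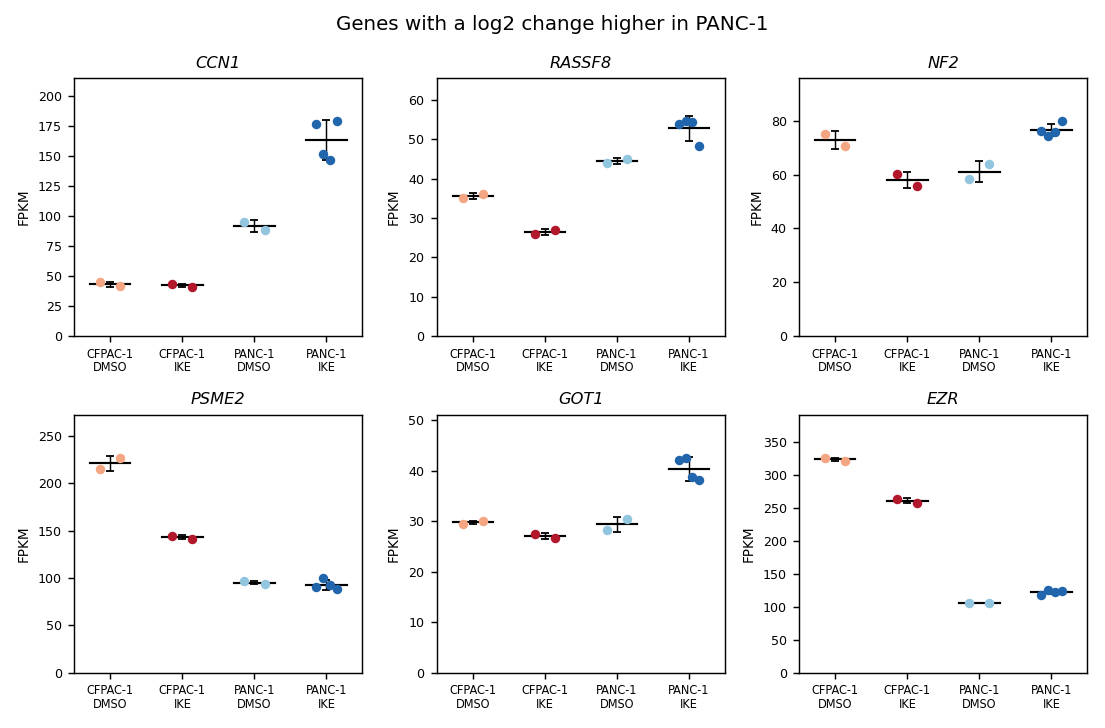
FPKM in each library (points) for the 6 genes whose log2 change was higher in PANC-1, with the group mean (bar) and SD (whisker). CCN1 and GOT1 rise in PANC-1, PSME2, RASSF8 and EZR fall in CFPAC-1, and NF2 rises in PANC-1.

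Around CCN1, 18 YAP and TAZ targets were expressed in both lines. None passed in CFPAC-1 and 3 rose in PANC-1 (CCN1, CCN2 and AMOTL2), beside 1.5% of all genes compared. CCN1 alone was called for the difference, with a list median of 0.03. That median was 0.0023 without PANC-1 DMSO replicate 1 and 0.16 without PANC-1 DMSO replicate 2. CCN2 (CTGF), a close relative of CCN1, had 13.5 and 12.8 FPKM in CFPAC-1 with DMSO, 14.8 and 14.9 with IKE, 31.1 and 28.2 in PANC-1 with DMSO and 66.4, 43.8, 42.7 and 66.2 with IKE. Its PANC-1 IKE libraries spread widely, and the difference of 0.67 (0.11 to 1.24) was not called (limma adjusted p = 0.321). AMOTL2, an angiomotin that binds YAP, differed by 0.55 (limma adjusted p = 0.115). Of 22 immediate early and ERK feedback genes, 1 rose in CFPAC-1 (MYC) and 6 in PANC-1 (CCN1, FOSL1, JUN, KLF6, MYC and SPRY2). The shares over all genes compared were 0.82% and 1.5%. CCN1 is thus in this list as well, and it was the only member called for the difference. The median difference of the list was 0.14 (0.09 without PANC-1 IKE replicate 4, 0.22 without PANC-1 IKE replicate 3).

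Around PSME2, 37 proteasome genes had a median difference of 0.17, and 3 of them lay below 0. PSME2 was the one member called, for the difference and in CFPAC-1, and no member passed in PANC-1. At an unadjusted p of 0.05, 14 of the 37 had the higher change in PANC-1 and 0 in CFPAC-1, beside 6.55% and 5.45% of all genes compared. PSMC4, an ATPase of the proteasome base, showed a wide gap in level between the lines, 64.4 and 69.1 FPKM in CFPAC-1 with DMSO against 1236 and 1172 in PANC-1, with 59.0 and 61.0 and with 1436, 1479, 1337 and 1435 after IKE. Its difference of response was 0.39 (limma adjusted p = 0.122).

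A panel of 24 genes covered cystine uptake, glutathione, iron, lipid peroxidation and stress factors. Of these, 20 were expressed in both lines. ASNS and ATF4 were called for the difference, beside 0.273% of all genes compared, and the other 18 were not. SLC7A11, the cystine-carrying subunit of system xc-, had 39.5 and 40.5 FPKM in CFPAC-1 with DMSO, 68.8 and 70.1 with IKE, 5.28 and 5.68 in PANC-1 with DMSO and 15.4, 9.89, 10.8 and 15.3 with IKE. It rose in PANC-1 by 1.07 ± 0.15 (limma adjusted p = 0.00538), its change of 0.78 ± 0.18 in CFPAC-1 did not pass (0.0593), and the difference was 0.29 with a wide interval of -0.22 to 0.80 (limma adjusted p = 0.657). In FPKM, the gain in PANC-1 minus that in CFPAC-1 was -22.0, from a far lower start. SLC3A2, its partner chain, rose in both lines and differed by -0.47 (-0.75 to -0.19, limma adjusted p = 0.173).

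FTL and FTH1, the ferritin chains that store iron, rose in both lines. FTL had 339.3 and 332.1 FPKM in CFPAC-1 with DMSO, 567.2 and 581.7 with IKE, 371.6 and 404.3 in PANC-1 with DMSO and 646.6, 697.0, 678.0 and 650.7 with IKE. The log2 changes of 0.77 ± 0.07 and 0.78 ± 0.06 differed by 0.01 with an interval of -0.19 to 0.21. FTH1 rose by 0.60 and 0.73, a difference of 0.13 (-0.18 to 0.43). The sign turned under other settings: FTL stood at -0.19 with quantile normalization, and FTH1 at -0.04 without PANC-1 DMSO replicate 1.

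Among NRF2 targets, TXNRD1, the cytosolic thioredoxin reductase, differed by -0.04 (-0.32 to 0.25), and SQSTM1, the autophagy receptor that binds KEAP1, by 0.11 (-0.14 to 0.36). Both rose in each line. NQO1, a quinone reductase, differed by -0.33 (-0.53 to -0.13, limma adjusted p = 0.177), and GCLC, the catalytic subunit that makes γ-glutamylcysteine, by -0.70 (-1.02 to -0.37, limma adjusted p = 0.0933). GCLC had 24.9 and 23.4 FPKM in CFPAC-1 with DMSO, 67.1 and 58.5 with IKE, 22.3 and 26.1 in PANC-1 with DMSO and 36.6, 37.5, 35.4 and 43.9 with IKE. Over 26 NRF2 targets, 11 rose in each line, beside 0.82% of all genes compared in CFPAC-1 and 1.5% in PANC-1. None was called for the difference, and the median was -0.0057, with a range of -0.05 to 0.01 under other settings. NFE2L2, which encodes NRF2, did not pass in either line and differed by -0.18 (-0.37 to 0.01).

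**Figure D4:**
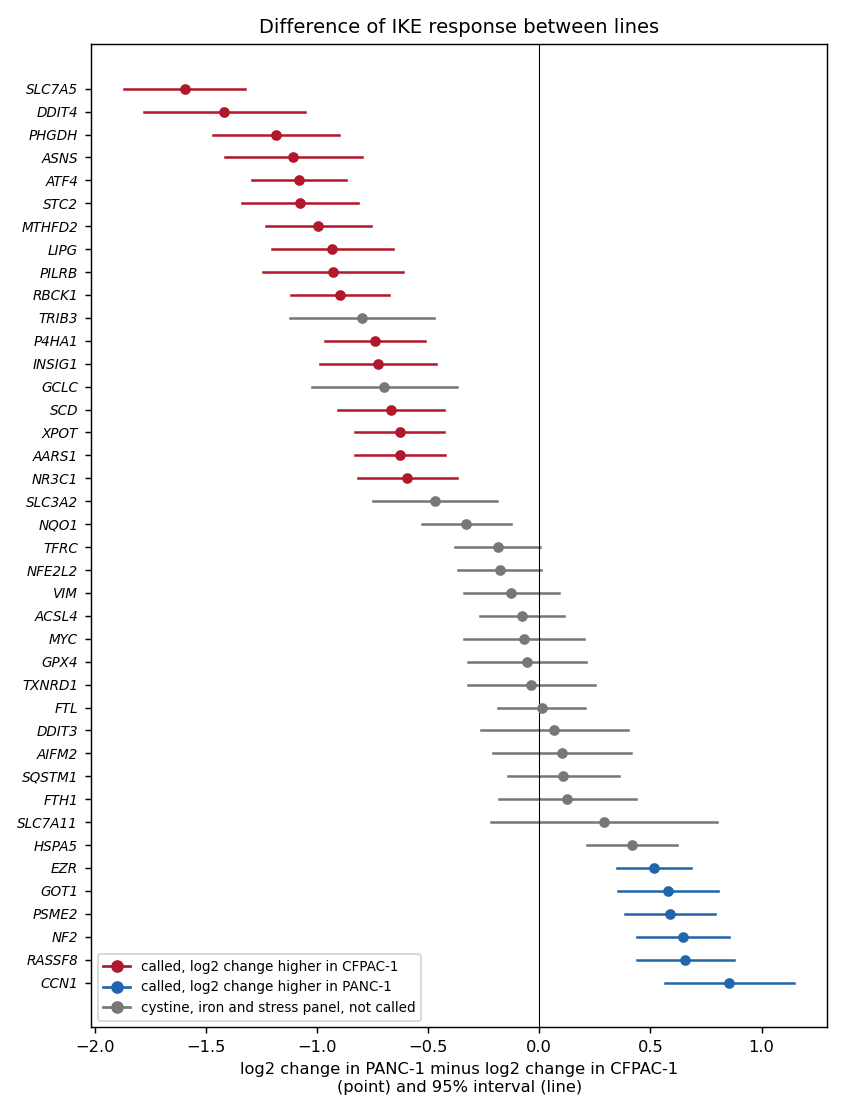
Difference of the log2 change (PANC-1 minus CFPAC-1, points) with 95% intervals (lines) for the 22 called genes and the panel genes without a call. SLC7A5 is lowest at -1.59 and CCN1 highest at 0.86; the interval of FTL, at 0.01, spans -0.19 to 0.21.

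TRIB3, a pseudokinase induced by ATF4, missed the threshold narrowly: it had 23.4 and 23.8 FPKM in CFPAC-1 with DMSO, 67.7 and 67.9 with IKE, 12.04 and 12.40 in PANC-1 with DMSO and 21.4, 23.6, 17.8 and 18.8 with IKE, a difference of -0.80 (-1.12 to -0.47, limma adjusted p = 0.0533). DDIT3 (CHOP), another stress factor downstream of ATF4, differed by 0.07 (-0.26 to 0.40) and passed in neither line. HSPA5 (BiP), the chaperone of the endoplasmic reticulum, had 153.6 and 146.5 FPKM in CFPAC-1 with DMSO, 163.9 and 155.7 with IKE, 142.0 and 145.8 in PANC-1 with DMSO and 208.0, 213.4, 190.0 and 208.9 with IKE. HSPA5 rose in PANC-1, and its difference was 0.42 (0.22 to 0.62, limma adjusted p = 0.0989). Of 27 unfolded protein response genes, 1 rose in CFPAC-1 and 6 in PANC-1, beside 0.82% and 1.5% of all genes compared. That list had a median difference of 0.06. Heat shock genes had a median difference of 0.17 over 21 members. No gene of either list was called for the difference.

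The defences and substrates of lipid peroxidation in the panel showed no called difference. GPX4, the glutathione peroxidase that reduces lipid peroxides, differed by -0.05 (-0.32 to 0.21), ACSL4, which loads polyunsaturated fatty acids onto coenzyme A, by -0.08 (-0.27 to 0.11), and AIFM2 (FSP1), which reduces coenzyme Q, by 0.10 (-0.21 to 0.41). None of the 3 passed in either line. TFRC, the transferrin receptor, rose in CFPAC-1 and differed by -0.19 (-0.38 to 0.00), with a gain in FPKM that was larger in PANC-1 by 1.29. MYC rose in both lines and differed by -0.07 (-0.34 to 0.20). VIM, vimentin, passed in neither line and differed by -0.13 (-0.34 to 0.09). The panel genes CHAC1, GCLM, HMOX1 and CDKN1A missed 5 FPKM in at least 1 line and were not compared.

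Of 35 G2/M and mitosis genes, 13 fell in CFPAC-1 and 16 in PANC-1, beside 0.422% and 1.37% of all genes compared, none was called for the difference, and the median difference was 0.02, with a range of -0.02 to 0.06 under other settings. CCNB1, cyclin B1, had 84.0 and 81.4 FPKM in CFPAC-1 with DMSO, 60.8 and 60.6 with IKE, 124.6 and 120.8 in PANC-1 with DMSO and 96.0, 106.2, 96.5 and 91.4 with IKE. It fell in both and differed by 0.11 (-0.10 to 0.32). Of 18 replication-dependent histones, 7 fell in PANC-1 and none in CFPAC-1, with a median difference of -0.25 and none called. H1-3, a linker histone, fell in PANC-1 from 96.4 and 88.3 FPKM to 47.0, 61.8, 55.1 and 40.7, against 94.9 and 105.2 to 86.4 and 82.9 in CFPAC-1, and its difference of -0.62 was not called (limma adjusted p = 0.242).

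**Figure D5:**
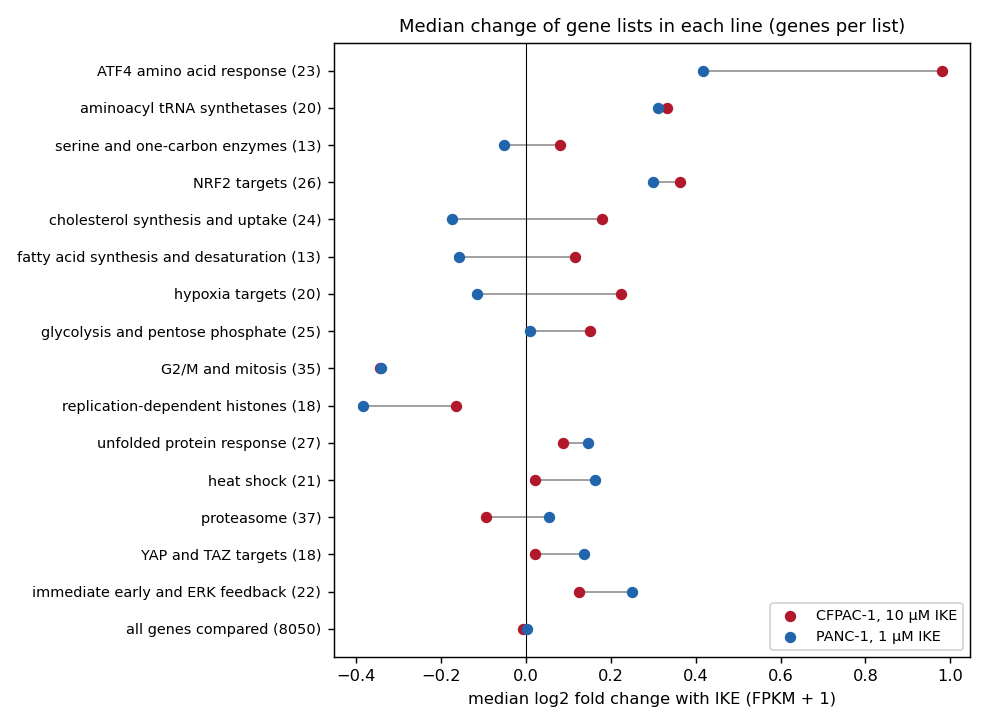
Median log2 fold change with IKE in CFPAC-1 (red) and PANC-1 (blue) for 15 gene lists and for all 8050 genes, with the number of genes in brackets. The ATF4 list is apart at the top. The cholesterol, fatty acid, hypoxia, proteasome and serine and one-carbon lists lie on opposite sides of 0 in the 2 lines. The medians over all genes do so too, at -0.0074 and 0.0028. The serine and one-carbon median turned sign in 1 of 23 other settings in CFPAC-1 and in 2 of 23 in PANC-1. The medians of the NRF2 and G2/M lists lie close together.

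The libraries summed to between 405937 and 472665 FPKM, with 11604 to 12248 genes at 1 FPKM or more; sequencing depth is unknown because the table holds no counts. The keratins KRT8, KRT18 and KRT19 were high in all libraries, while KRT7 was at 271 to 330 FPKM in CFPAC-1 and 4.39 to 6.15 in PANC-1, and EPCAM at 152 to 158 and 8.58 to 11.1. Of 29 markers of other cell types, 3 to 7 reached 1 FPKM, and CD68 was the highest in each library. Their sum ran from 107 to 116 FPKM in CFPAC-1 and from 51.2 to 61.8 in PANC-1. In CFPAC-1, PECAM1 stood at 18.45 to 21.29 FPKM and CD14 at 11.15 to 14.67. In PANC-1, PECAM1 stood at 0.03 to 0.08 FPKM, CD14 at 0.4 to 1.25 and COL3A1 at 0.85 to 1.46. PTPRC, CD3E, VWF, CDH5, DCN, CPA1, INS and GCG lay at or near 0 in both lines. Mitochondrially encoded genes took 5.27% of FPKM in PANC-1 IKE replicate 3 and 2.65% to 3.76% elsewhere. Beside this, the 13 mitochondrially encoded respiratory chain genes had a median difference of 0.37, none called, 0.07 without PANC-1 DMSO replicate 1 and 0.66 without PANC-1 DMSO replicate 2; its part in the other values was not tested.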

How the data were processed

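RNA was measured in 10 libraries of CFPAC-1 and PANC-1 cells. Per the labels' protocols, rRNA was removed from total RNA, and the second cDNA strand was digested before amplification. Per the submitters' processing notes, the build was GRCh38 and the tools included StringTie 1.3.4, HISAT2 2.1.0, Bowtie2 2.2.8, fastp 0.18.0 and DESeq2. Not given in the sources used here are what each tool did, which annotation served and whether the counting was stranded. The authors deposited FPKM values per gene, and 9 empty columns of the table were not used. Depth is unknown, so counting error is not covered.

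The 13077 genes that reached 1 FPKM in 2 libraries or more were fitted on log2(FPKM + 1) with limma 3.58.1 in R 4.3.3, with a mean for each of 4 groups and an intensity trend (6 residual and 5.10 prior degrees of freedom). A fold change on this scale understates the change of low genes. Two-sided p-values received a Benjamini-Hochberg adjustment over all fitted genes, with a threshold of 0.05. Errors are standard errors of the fit. The fit was tried on simulated data with independent normal noise drawn at the fit's own variances. Such data cannot show how the fit holds where libraries are correlated. Genes were then compared where the DMSO mean was at least 5 FPKM in each line.

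Named genes were the 10 called genes with the largest difference in each direction (each IKE library beyond each DMSO library in at least 1 line), up to 4 called genes of each list, called genes with opposite changes, and a panel of 24 genes. Other genes named as examples of a list were chosen after their values were seen. The members, the 36 lists, the panel and the tests were chosen with earlier results of these data known, so list counts and medians are descriptions; lists share genes. No list test was run. Alternatives covered the pseudocount (0.1), the filters, scaling, the linear scale, the variance prior, the replicate number as a block, pairs of PANC-1 IKE libraries and each library left out in turn. List medians under these were added after the data were seen. Gene overlaps are from GENCODE 29. Promoters are RefSeq windows, with matches sought by script.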

Additional observations from a re-analysis of the deposited data

Results flagged for a closer look

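Within PANC-1 with IKE, a single library stood apart from its 3 fellows for 2 of the called genes, LIPG with 64.45 FPKM in replicate 2 and RASSF8 with 48.16 FPKM in replicate 4. Chance sets a library apart in this way in about 1 of 20 groups, and 1 group of 4 libraries was looked at for each gene named.

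The test of the difference itself passed for 22 genes. The differences (log2 change in PANC-1 minus that in CFPAC-1) were -1.59 for SLC7A5, -1.42 for DDIT4, -1.18 for PHGDH, -1.11 for ASNS, -1.08 for ATF4, -1.08 for STC2 and -0.99 for MTHFD2. They were -0.93 for LIPG, -0.93 for PILRB, -0.90 for RBCK1, -0.74 for P4HA1, -0.73 for INSIG1 and -0.67 for SCD. The smallest on this side were -0.63 for XPOT, -0.63 for AARS1 and -0.59 for NR3C1. In the other direction they were 0.52 for EZR, 0.58 for GOT1, 0.59 for PSME2, 0.65 for NF2, 0.66 for RASSF8 and 0.86 for CCN1. Dose and line cannot be told apart in any of them.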

How the results depend on the processing

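The 22 called genes kept their sign in each limma fit run. With the replicate number as a block, 9 genes had the higher change in CFPAC-1 and 2 in PANC-1, against 16 and 6. Lost with the block were LIPG, P4HA1, INSIG1, SCD, XPOT, AARS1, NR3C1, EZR, GOT1, PSME2 and NF2. Deviations of same-numbered libraries correlated at -0.05 to 0.21, and those of differently numbered libraries at -0.21 to 0.19. In groups of 2 libraries the deviations mirror each other, so these values cannot settle whether the numbers pair the libraries. The main fit did not pair them. PANC-1 IKE replicates 1 and 2 alone gave 9 and 3, replicates 3 and 4 alone gave 39 and 9, and a fit with no trend gave 3 with the higher change in PANC-1. Without single libraries the counts ran from 8 to 29 and from 0 to 9. The 0 came from limma without CFPAC-1 DMSO replicate 2, CFPAC-1 IKE replicate 2 or PANC-1 DMSO replicate 1, where 803, 651 and 649 genes had an unadjusted p under 0.05. Median-ratio scaling gave 18 and 8, quantile normalization 22 and 6.

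On the linear scale the gain in FPKM had the other sign for ASNS (25.9), PHGDH (3.94), GARS1 (83.2), TXNRD1 (80.1), TFRC (1.29), SLC7A11 (-22.0) and CCNB1 (-3.14). With quantile normalization FTL turned to -0.19 and SQSTM1 to -0.017. Without single libraries, differences near 0 turned sign: AIFM2 ran from -0.0051 to 0.21, DDIT3 from -0.079 to 0.21, FTH1 from -0.042 to 0.29, FTL from -0.051 to 0.071, GPX4 from -0.12 to 0.013, MYC from -0.19 to 0.049 and TXNRD1 from -0.092 to 0.015. FPKM carry no depth, so which small differences depth hides was not tested.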

Other observations

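The medians of the difference of further lists stand beside 0.01 for all genes compared. Within the lines, 0.82% of all genes compared rose in CFPAC-1, and 1.5% rose and 1.37% fell in PANC-1. Of 33 suppressors of ferroptosis, 6 rose in CFPAC-1, 7 rose and 1 fell in PANC-1, and SCD alone was called for the difference (list median -0.03). Of 31 drivers of ferroptosis, 3 rose in CFPAC-1 and 1 in PANC-1, with a median difference of -0.05 (-0.03 without CFPAC-1 IKE replicate 1) and none called. The 27 genes of iron and haem handling had a median of 0.0062 and none called. The 19 glutathione genes had a median of 0.01 and the 11 genes of transsulfuration and the methionine cycle one of -0.09, with none called in either. The signs of the suppressor, iron and glutathione medians turned under other settings.

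Among genes of cell identity, 20 epithelial genes had a median difference of -0.02 and 9 mesenchymal genes one of -0.0078, both of which turned sign under other settings, and no member of either passed in either line. The medians were 0.05 for 75 ribosomal proteins, 0.12 for 29 genes of ribosome biogenesis, 0.10 for 37 nuclear genes of the respiratory chain and 0.07 for 35 genes of autophagy and the lysosome. They were -0.07 for 32 genes of G1/S and replication, 0.12 for 22 interferon genes, 0.18 for 7 genes of NF-kB and inflammation and -0.12 for 15 genes of the TGF-beta pathway. Without single libraries some of these moved by over 1.5 times: G1/S to -0.13 and -0.0022 without CFPAC-1 DMSO replicates 1 and 2, TGF-beta to -0.07 without PANC-1 DMSO replicate 1, ribosomal proteins to 0.03 without PANC-1 IKE replicate 2, and autophagy to 0.04 and 0.12 without PANC-1 and CFPAC-1 DMSO replicate 1. For 14 p53 targets, 22 regulators of apoptosis and 7 metallothionein and zinc genes they were -0.06, 0.0034 and 0.09, and these 3 turned sign under other settings. No gene of these last 11 lists was called for the difference. Only CD68 of the markers of other cell types was expressed in both lines, with a difference of 0.21 that was not called (0.07 and 0.35 without PANC-1 DMSO replicates 1 and 2).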
